A study of Brachypodium distachyon with 8 samples.

Results

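Quantitative PCR expresses a target transcript relative to a reference gene, whose own transcript is taken to stay level across the samples compared. In *Brachypodium distachyon*, a small temperate grass used as a model for cereals, 5 such reference genes are *UBC18*, *SamDC*, *actin*, *EF1 alpha* and *GAPDH*. The rule that picks them names their gene identifiers and uses no values, but it was set with earlier results of these data known. They are 5 of 27830 identifiers in the expression tables. The question was how high and how steady each stood in leaf RNA sequencing across genotype and methyl jasmonate treatment, with and without rescaling of the libraries.

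The genes serve unrelated housekeeping processes. *UBC18* encodes a ubiquitin-conjugating enzyme, which carries activated ubiquitin towards proteins that are to be tagged. *SamDC* encodes S-adenosylmethionine decarboxylase, which makes the aminopropyl donor for the polyamines spermidine and spermine. *Actin* encodes the subunit of the microfilaments of the cytoskeleton. *EF1 alpha* encodes the translation elongation factor that brings aminoacyl-tRNA to the ribosome. *GAPDH* encodes glyceraldehyde-3-phosphate dehydrogenase, an enzyme of sugar breakdown that oxidises a triose phosphate. Most of these proteins belong to gene families in plants, so each value below belongs to 1 identifier and not to the family, and reads shared with close copies were not examined. The study itself normalised its *Brachypodium* qRT-PCR of *LNJ*, the gene whose overexpression it examined, against *GAPDH*. Its main text does not give the locus of that *GAPDH*, which may be another identifier than the one used here.

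Leaves came from 4-week-old plants of line Bd21-3, either wild type or a homozygous overexpression line termed BdLNJ-OX (MTL-OX in the sample labels, and earlier ABI), made by *Agrobacterium* transformation with a binary vector. Each genotype received mock treatment (0.15% Tween) or 100 µM methyl jasmonate (MeJA) in the same Tween solution. MeJA is the volatile methyl ester of the wound and defence hormone jasmonic acid. The 8 libraries form 4 groups of 2, and each sample pooled 12 plants. The promoter that drives the transgene and the transgenic line that was sequenced are not given in the sources used here, and the methods describe 2 spray regimes without saying which of them these samples received. The numbers 1 to 8 in the sample labels are used as replicate numbers, and the submitters describe the 2 samples of a group as biological replicates.

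The genotype in the labels and the genotype in the deposited table names were opposite for all 8 libraries. *LNJ* (*BRADI1G69970*) was at 689 and 762 FPKM in the mock libraries labelled wild type and at 597 and 581 FPKM in the MeJA libraries labelled wild type. It was listed at 0 in both mock libraries labelled BdLNJ-OX and in 1 MeJA library so labelled, and at 0.834 FPKM in the other. The level of the targeted gene therefore went against the labels and with the table names. Groups below keep the labels and are called "labelled wild type" and "labelled BdLNJ-OX", and the direction of every genotype difference turns if the table names are taken instead. FPKM, the fragments per length of transcript and per mapped fragments of the library, corrects a level for transcript length and library depth. The precision intervals deposited with the values implied 13452944 to 15821600 fragments per library. Median-ratio scaling divides each library by the median of its ratios to a reference library made from all 8. Its factors ran from 0.850 to 1.11, and the lowest, 0.850 and 0.937, belonged to the 2 mock libraries labelled BdLNJ-OX.

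The loci are given as the files place them, counted from 1, with the assembly not given in the sources used here. *UBC18* (*BRADI4G00660*) lies on chromosome 4 from 314476 to 318373 and *SamDC* (*BRADI5G14640*) on chromosome 5 from 18070125 to 18072904. *Actin* (*BRADI4G41850*) lies on chromosome 4 from 45809000 to 45811767 and *GAPDH* (*BRADI3G14120*) on chromosome 3 from 12555749 to 12559509. *EF1 alpha* (*BRADI1G06860*) lies on chromosome 1 from 4683873 to 4698983, at 15111 bp the longest of these loci. None of the 5 overlapped another listed locus.

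All 5 genes were well expressed, over a wide range of levels per length. Mean FPKM over the 8 libraries was 1173 ± 177 (SD, n = 8) for *SamDC*, 497 ± 39.5 for *actin*, 494 ± 195 for *EF1 alpha*, 359 ± 103 for *GAPDH* and 45.6 ± 3.81 for *UBC18*. Among the 14922 genes with a mean of at least 1 FPKM, *SamDC* stood at percentile 99.4 and *actin* and *EF1 alpha* at 98.7. *GAPDH* stood at 98.1 and *UBC18* at 86.2. *SamDC* was the highest and *UBC18* the lowest of the 5 in all 8 libraries. The 3 genes between them took 4 different orders over the libraries, so *actin*, *EF1 alpha* and *GAPDH* had no fixed order of level.

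*UBC18* was the steadiest of the 5 once the libraries were scaled. Its FPKM was 50.5 and 45.6 in the mock and 48.9 and 43.3 in the MeJA libraries labelled wild type. In those labelled BdLNJ-OX it was 41.4 and 40.5 under mock and 45.0 and 49.8 under MeJA. The 2 mock libraries labelled BdLNJ-OX were the lowest, and these are the libraries with the lowest scaling factors. After scaling the same libraries held 48.2, 43.9, 46.0, 40.4, 48.8, 43.2, 45.3 and 45.0 FPKM in that order. The 4 groups then overlapped and the highest library exceeded the lowest by 1.21-fold, against 1.25-fold before scaling. The coefficient of variation (CV, the SD as a percentage of the mean) was 8.34% before and 5.99% after scaling. *UBC18* was also the gene with the fewest fragments, 588 to 860 per library as implied by the intervals, whose half-widths were 6.82% to 8.25% of the value. These are half-widths of 95% intervals, which do not cover the spread between samples.

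*Actin* was as steady as *UBC18* in the deposited values and less so after scaling. It was at 491 and 455 FPKM in the mock and 459 and 452 FPKM in the MeJA libraries labelled wild type. The libraries labelled BdLNJ-OX held 518 and 520 FPKM under mock and 515 and 563 FPKM under MeJA. All 4 libraries labelled BdLNJ-OX were above all 4 labelled wild type, by a margin that was small beside the level. Scaling widened the gap, to 422 to 468 FPKM in the libraries labelled wild type and 509 to 609 FPKM in those labelled BdLNJ-OX. The CV accordingly went from 7.95% to 13.4%.

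*SamDC* varied more, and its highest libraries were in different groups before and after scaling. Its FPKM was 1165 and 1131 in the mock and 1537 and 1221 in the MeJA libraries labelled wild type. Libraries labelled BdLNJ-OX had 1268 and 1030 FPKM under mock and 1064 and 969 FPKM under MeJA. Scaled values were 1111, 1090, 1446 and 1138 FPKM for the libraries labelled wild type and 1492, 1099, 1071 and 876 FPKM for those labelled BdLNJ-OX, in the same order. The highest library was thus MeJA replicate 3 labelled wild type before scaling and mock replicate 5 labelled BdLNJ-OX after it. The CV was 15.1% before and 17.5% after scaling. The deposited intervals were the narrowest of the 5, with half-widths of 0.825% to 1.02% of the value.

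*GAPDH* split by genotype label. It was at 426 and 463 FPKM in the mock and 458 and 463 FPKM in the MeJA libraries labelled wild type, within 1.09-fold of each other. The libraries labelled BdLNJ-OX held 223 and 252 FPKM under mock and 309 and 280 FPKM under MeJA. No library of one label reached the range of the other. In leaf RNA, fewer cells that express a gene and less of its RNA per cell cannot be told apart. After scaling the ranges were 406 to 446 FPKM and 253 to 311 FPKM. The CV over the 8 libraries was 28.8% and 24.3% after scaling, against 3.94% and 3.91% within the 4 libraries labelled wild type. Within the 4 libraries labelled BdLNJ-OX it was 13.9% and 9.36% after scaling.

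*EF1 alpha* was the least steady of the 5 in FPKM, between genotype labels and between replicates. It was at 585 and 775 FPKM in the mock and 604 and 627 FPKM in the MeJA libraries labelled wild type. The libraries labelled BdLNJ-OX held 261 and 521 FPKM under mock and 350 and 226 FPKM under MeJA. The mock pair labelled BdLNJ-OX differed 2.00-fold and the MeJA pair so labelled 1.55-fold, a wider spread between replicates than the 1.45-fold or less that *actin* or *UBC18* covered over all 8 libraries. The libraries of the 2 labels did not overlap, but after scaling the lowest labelled wild type (557 FPKM) and the highest labelled BdLNJ-OX (556 FPKM) nearly met. The CV was 39.4% and 36.9% after scaling. The deposited intervals of *EF1 alpha* were wide for its level: they corresponded to 5.11 to 12.6 fragments per FPKM, against 31.5 to 37.2 for *actin* at a like mean level and 14.5 to 17.0 for *UBC18*. The intervals implied only 3736 to 3965 *EF1 alpha* fragments per library labelled wild type and 2844 to 3542 per library labelled BdLNJ-OX. The mock pair labelled BdLNJ-OX had 2923 and 3542. In relation to their size, these fragments differed less than FPKM between the labels and within that pair. Fragments per FPKM thus varied more from library to library for *EF1 alpha* than for *actin* or *UBC18*. The implied depth of the libraries was 13452944 to 15821600 fragments. The part of this variation in the FPKM spread between replicates and between genotype labels was not tested.

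**Figure D1:**
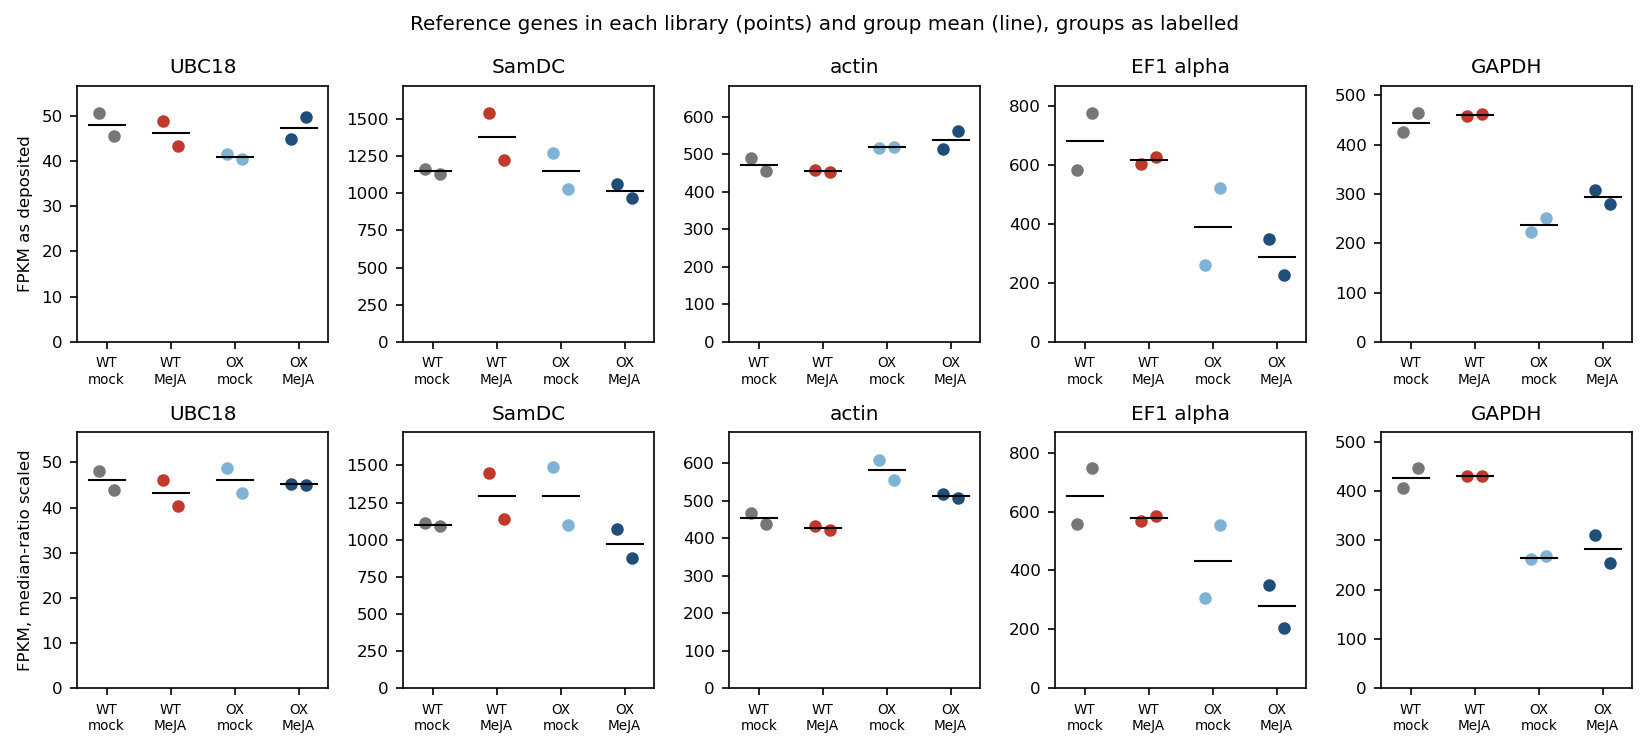
FPKM of the 5 reference genes by library (points) and group mean (lines) as deposited (upper panels) and after median-ratio scaling (lower panels), with groups as labelled (WT, labelled wild type; OX, labelled BdLNJ-OX) and every axis starting at 0. *UBC18* stays between 40.4 and 48.8 FPKM after scaling, whereas *GAPDH* lies at 406 to 446 FPKM in the libraries labelled wild type and at 253 to 311 FPKM in those labelled BdLNJ-OX.

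To set the 5 genes beside the other genes, the SD of log2(FPKM + 1) over the 8 libraries was taken as a measure of steadiness that ignores the groups. The median SD of the 14922 genes was 0.26 before and 0.24 after scaling. *Actin* (0.11) and *UBC18* (0.12) were well below it before scaling, when 4.39% and 5.15% of the genes were steadier. After scaling *UBC18* was at 0.09 with 2.72% of the genes steadier, and *actin* was at 0.19 with 34.6% steadier. *SamDC* was close to the middle of all genes, at 0.21 with 33.8% steadier before scaling and 0.25 with 52.7% steadier after it. *GAPDH* (0.44, and 0.36 scaled) was less steady than most, with 81.2% and 73.8% of the genes steadier. *EF1 alpha* (0.65, and 0.62 scaled) was passed in steadiness by 92.5% and 92.1%. The order of the 2 steadiest members thus depended on scaling, while *SamDC*, *GAPDH* and *EF1 alpha* kept the third, the fourth and the fifth place on both scales.

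Shares among genes within 2-fold of the mean level of each member differed from these most for *SamDC* and *actin* after scaling. Of the 108 genes of like level, 36.1% were steadier than *SamDC* as deposited and 25% after scaling. For *actin* the shares were 5.33% and 16.3% of 338 genes, and for *UBC18* 6.62% and 2.47% of 2553. For *GAPDH* they were 73.0% and 62.0% of 481 genes and for *EF1 alpha* 85.6% and 85.3% of 341. Of the 1896 genes with a mean of at least 50 FPKM, 30 had a smaller scaled SD than *UBC18*, itself just under that level. For *actin* that number was 433 and for *SamDC* 771. It was 1243 for *GAPDH* and 1633 for *EF1 alpha*.

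**Figure D2:**
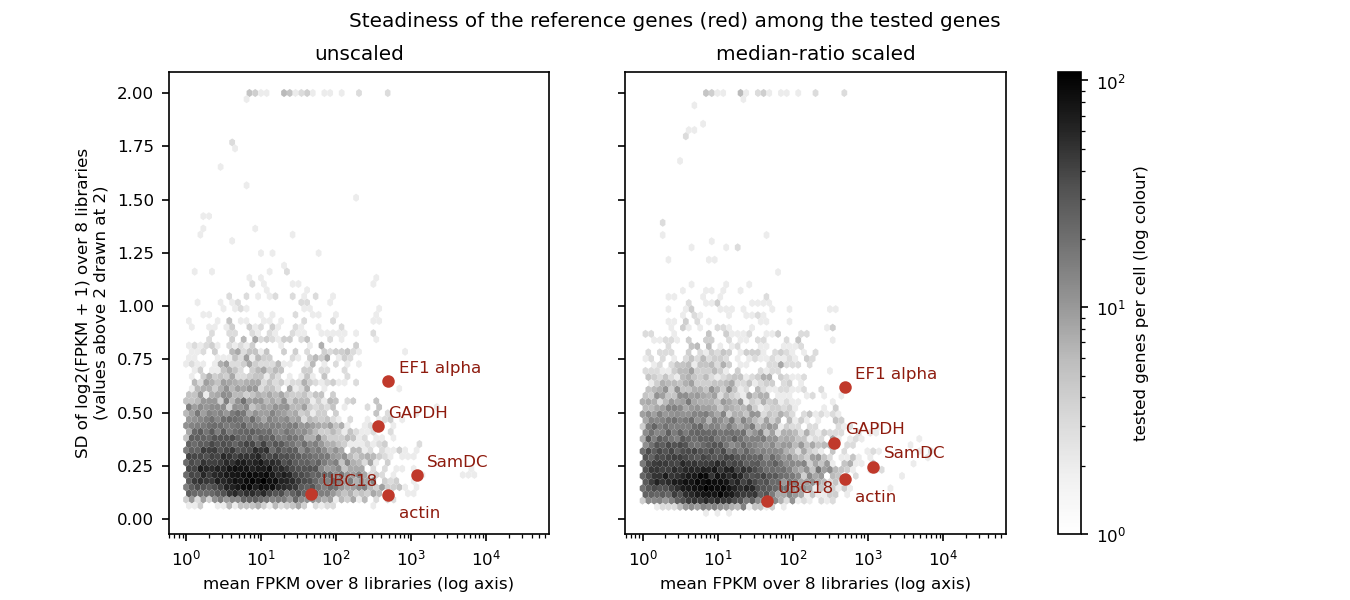
SD of log2(FPKM + 1) over 8 libraries (vertical axis, values above 2 drawn at 2) against mean FPKM (log axis) for the 14922 tested genes, as deposited (left) and after median-ratio scaling (right); shading gives the number of genes per cell and red points the reference genes. *UBC18* lies at the lower edge of the cloud on both scales, *actin* moves from 0.11 to 0.19 on scaling, and *EF1 alpha* stands highest of the 5 at 0.65 and 0.62.

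The response to MeJA was asked first over both genotypes, with 4 libraries against 4. The test was limma's moderated test on log2(FPKM + 1), fitted over the 14922 genes with Benjamini-Hochberg adjustment over all of them. A gene was called at an adjusted p of at most 0.05 and a change of at least 2-fold. None of the 5 reference genes was called, where 0.188% of the tested genes were (0.147% after scaling), and 0 of 5 had an unadjusted p under 0.05 in limma, which 16.5% of the tested genes had. The changes were 0.00 for *actin* (95% interval -0.20 to 0.20), 0.04 for *SamDC* (-0.27 to 0.36), 0.07 for *UBC18* (-0.17 to 0.32), 0.18 for *GAPDH* (-0.06 to 0.42) and -0.26 for *EF1 alpha* (-0.81 to 0.29), all on the log2(FPKM + 1) scale. Their median was 0.04, beside 0.11 over all tested genes. On the scaled values the median of all genes was at 0.00, that of the 5 at -0.09, and *UBC18*, *SamDC* and *actin* changed sign to -0.06, -0.09 and -0.13. These intervals bound a MeJA difference averaged over the 2 genotype labels to less than 1.5-fold for all but *EF1 alpha*. Within a label they were wider and do not give that bound. They reached 0.66 for *SamDC* labelled wild type and 0.64 for *GAPDH* labelled BdLNJ-OX. After scaling the interval of *SamDC* labelled BdLNJ-OX reached -0.92. The spread of *EF1 alpha* left a wider range over both labels. Its estimate was -0.43 without mock replicate 5, -0.035 without mock replicate 6 and -0.11 without MeJA replicate 8, all labelled BdLNJ-OX. In no gene did the 4 MeJA libraries lie clear of the 4 mock libraries, which 8.02% of the tested genes did (6.27% scaled).

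Within each genotype label, 2 libraries stood against 2. None of the 5 was called in the libraries labelled wild type (0.0335% of tested genes were) or in those labelled BdLNJ-OX (0.0737% were). None had an unadjusted p under 0.05 in limma either, which 5.99% and 18.9% of the tested genes had. Among libraries labelled wild type the log2 changes ran from -0.13 (*EF1 alpha*) to 0.26 (*SamDC*). Among those labelled BdLNJ-OX they ran from -0.39 (*EF1 alpha*) to 0.31 (*GAPDH*, 95% interval -0.02 to 0.64, adjusted p = 0.281 in limma). There *GAPDH* was above both mock libraries in both MeJA libraries as deposited, a split whose share among all tested genes was not computed. After scaling its libraries overlapped and the change was 0.08, beside a median of all genes that moved from 0.18 to -0.01. The change of *EF1 alpha* was -0.62 after scaling and rested on single libraries as deposited, at -0.89 without mock replicate 5, 0.11 without mock replicate 6, -0.71 without MeJA replicate 7 and -0.08 without MeJA replicate 8. That of *SamDC* under the wild-type label was 0.09 without MeJA replicate 3 and 0.42 without MeJA replicate 4.

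*SamDC* had MeJA differences of opposite sign under the 2 genotype labels. After scaling both MeJA libraries labelled wild type (1446 and 1138 FPKM) were above their mock libraries, and both labelled BdLNJ-OX (1071 and 876 FPKM) were below theirs. As deposited the libraries labelled BdLNJ-OX overlapped, at 1064 and 969 FPKM under MeJA and 1268 and 1030 FPKM under mock. The share of tested genes with such splits of 2 against 2 libraries was not computed. The difference of the MeJA changes was -0.43 as deposited (95% interval -0.9995 to 0.15, adjusted p = 0.805 in limma) and -0.62 after scaling (-1.36 to 0.11, adjusted p = 0.999). It did not pass the test on either scale, and as deposited it was -0.26 without MeJA replicate 3 labelled wild type and -0.28 without mock replicate 5 labelled BdLNJ-OX. None of the 5 had an unadjusted p under 0.05 for the difference of the MeJA changes in limma (6.34% of the tested genes had), and none was called where 0.0134% were.

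**Figure D3:**
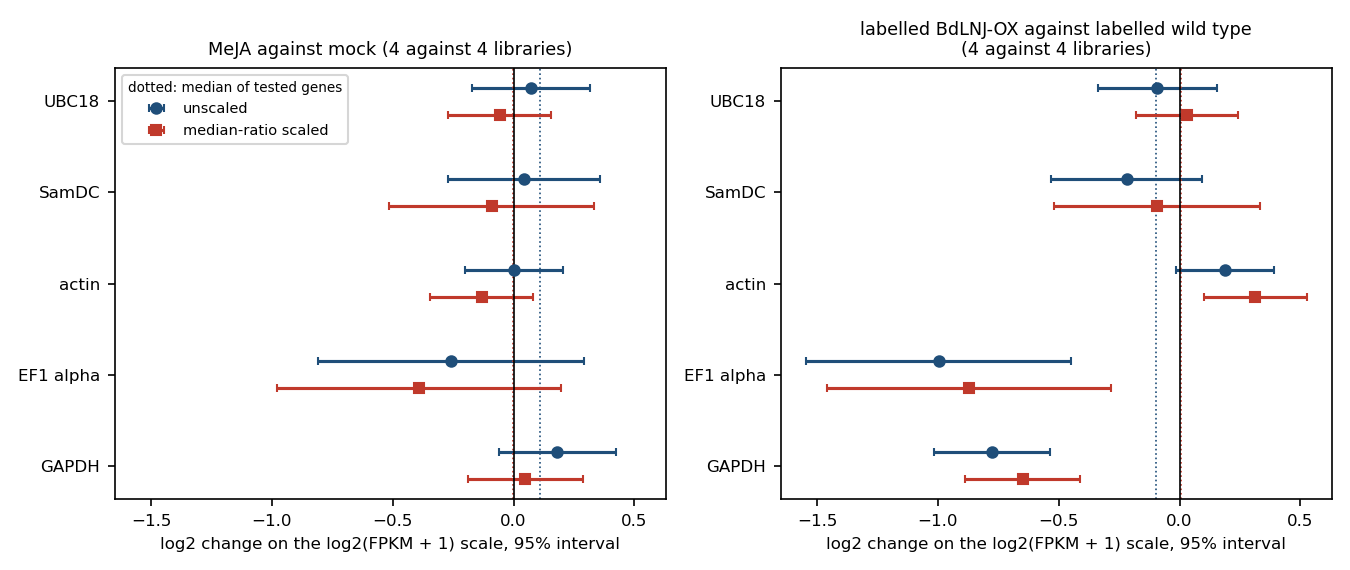
Log2 change of each reference gene with its 95% interval for MeJA against mock (left) and for labelled BdLNJ-OX against labelled wild type (right), 4 against 4 libraries, as deposited (circles) and median-ratio scaled (squares), with dotted lines at the median of the tested genes. All MeJA intervals include 0, whereas the genotype intervals of *GAPDH* and *EF1 alpha* lie below 0 on both scales and that of *actin* lies above 0 after scaling.

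Between the genotype labels, 4 libraries against 4, the estimates for *GAPDH* and *EF1 alpha* were larger than any over MeJA. Over both treatments, *GAPDH* was lower in the libraries labelled BdLNJ-OX by 1.71-fold, a log2 change of -0.78 (SE 0.10, 95% interval -1.02 to -0.53, adjusted p = 0.0286 in limma). It passed the adjusted p and missed the 2-fold threshold, so none of the 5 was called where 1.11% of the tested genes were. By the adjusted p alone, 1 of 5 passed where 5.53% of all genes did, and *GAPDH* ranked 35 of 14922 by p. After scaling the change was -0.65 (95% interval -0.89 to -0.41, adjusted p = 0.0442, rank 90), where 0.891% of all genes passed the adjusted p and 0.348% were called. The estimate was stable when single libraries were left out, between -0.83 and -0.71, but the adjusted p was not. It passed in 1 of 8 such fits, that without mock replicate 6 labelled BdLNJ-OX (0.0105), and reached 0.135 in the others. The number of genes called over the whole table moved with the same library, to 705 without it and to between 11 and 27 without any other, from 165 with all 8.

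*EF1 alpha* had the largest FPKM estimate of the 5, -0.998 or 2.00-fold lower in the libraries labelled BdLNJ-OX. Its implied fragments differed less, at 3736 to 3965 per library labelled wild type and 2844 to 3542 per library labelled BdLNJ-OX. How far this bears on the 2.00-fold difference was not tested. The FPKM estimate also had the largest error (SE 0.24, 95% interval -1.55 to -0.45). Its adjusted p of 0.0512 in limma missed the threshold, and it was 0.0868 after scaling, where the change was -0.87. Leaving out mock replicate 6 labelled BdLNJ-OX, the higher of that uneven pair, gave -1.22 with an adjusted p of 0.0100 and a call. The 7 other fits gave -1.11 to -0.83 with no call.

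*Actin* went the other way, by 0.19 (95% interval -0.02 to 0.39, adjusted p = 0.203 in limma) as deposited and 0.31 after scaling (0.10 to 0.53, adjusted p = 0.0884). The change of 1.14-fold, or 1.24-fold scaled, did not pass the test on either scale. Without adjustment 2 of the 5 (*EF1 alpha* and *GAPDH*) had a p under 0.05 in limma as deposited, which 29.1% of the tested genes had. After scaling *actin* joined them, giving 3 of the 5 beside 28.3% of the tested genes. *SamDC* (-0.22, 95% interval -0.53 to 0.09, and -0.11 without MeJA replicate 3 labelled wild type) and *UBC18* (-0.09, -0.34 to 0.15) had intervals that include 0. On the scaled values these were -0.09 and 0.03, so the direction for *UBC18* depended on scaling. The median change of the 5 was -0.22 beside -0.10 for all genes, and -0.09 beside 0.01 after scaling. For 3 of the 5, *actin*, *EF1 alpha* and *GAPDH*, the libraries of the 2 labels did not overlap on either scale, where 16.9% of the tested genes did not (15% scaled).

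Within mock and within MeJA the estimates for *GAPDH* were -0.91 (adjusted p = 0.107 in limma) and -0.64 (adjusted p = 0.217). Those for *EF1 alpha* were -0.87 (adjusted p = 0.230) and -1.13 (adjusted p = 0.238). Single libraries moved the first of these, to -0.37 without mock replicate 5 labelled BdLNJ-OX and to -1.36 without mock replicate 6, and it was -0.64 after scaling. Both genes were lower under the BdLNJ-OX label in each treatment, and with 2 libraries a side neither passed. None of the 5 was called in mock (0.0804% of tested genes were) or in MeJA (0.0536% were). An unadjusted p under 0.05 was reached in limma by 2 of 5 in mock (21.1% of tested genes) and by 3 of 5 in MeJA (17%), the third being *SamDC* at -0.43 (95% interval -0.84 to -0.03, adjusted p = 0.276), which was -0.27 without MeJA replicate 3 labelled wild type. After scaling 2 of 5 reached it in each treatment, *actin* (0.36) and *GAPDH* (-0.68) in mock (14.2% of tested genes) and *EF1 alpha* (-1.10) and *GAPDH* (-0.62) in MeJA (17.2%), while *SamDC* in MeJA was at -0.40 (95% interval -0.92 to 0.11).

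The ratio of 2 genes within a library does not depend on how the library is scaled. The ratios are of FPKM and were not compared with qPCR. The 10 pairs are not independent, since each gene enters 4 of them, and are given as a description with no test. *UBC18* to *actin* had the steadiest ratio, with an SD of 0.17 on the log2 scale, followed by *UBC18* to *SamDC* at 0.23. *Actin* to *EF1 alpha* had the least steady, at 0.75. Averaged over its 4 pairs, *UBC18* had the lowest SD (0.36), then *SamDC* (0.38), *GAPDH* (0.43), *actin* (0.44) and *EF1 alpha* (0.60). *Actin*, steady by itself, came late in this order, with ratios to *GAPDH* (0.54) and *EF1 alpha* (0.75) that varied more than those to *UBC18* and *SamDC* (0.29).

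The ratio of *actin* to *GAPDH* was 1.15 and 0.982 in the mock and 1.003 and 0.978 in the MeJA libraries labelled wild type. It was 2.33 and 2.07 in the mock and 1.67 and 2.01 in the MeJA libraries labelled BdLNJ-OX. The 2 labels did not overlap and differed 1.95-fold in the geometric mean, more than either gene alone. *UBC18* to *GAPDH* ran from 0.0937 to 0.119 under the wild-type label and from 0.146 to 0.186 under the BdLNJ-OX label, a 1.61-fold difference. Even the steadiest pair differed by genotype label: *UBC18* to *actin* was 0.0958 to 0.107 in the libraries labelled wild type and 0.0779 to 0.0884 in those labelled BdLNJ-OX, a 1.22-fold difference. In all, 5 of the 10 ratios did not overlap between genotype labels, and 0 of 10 were clear of overlap between mock and MeJA. Each of these 5 pairs holds *actin* or *GAPDH*, which did not overlap between the labels by themselves. The share of such ratios among pairs of all tested genes was not computed, so these counts have no baseline. *UBC18* to *SamDC* was the steadiest ratio that overlapped between the labels, at 0.0318 to 0.0434 and 0.0327 to 0.0513.

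**Figure D4:**
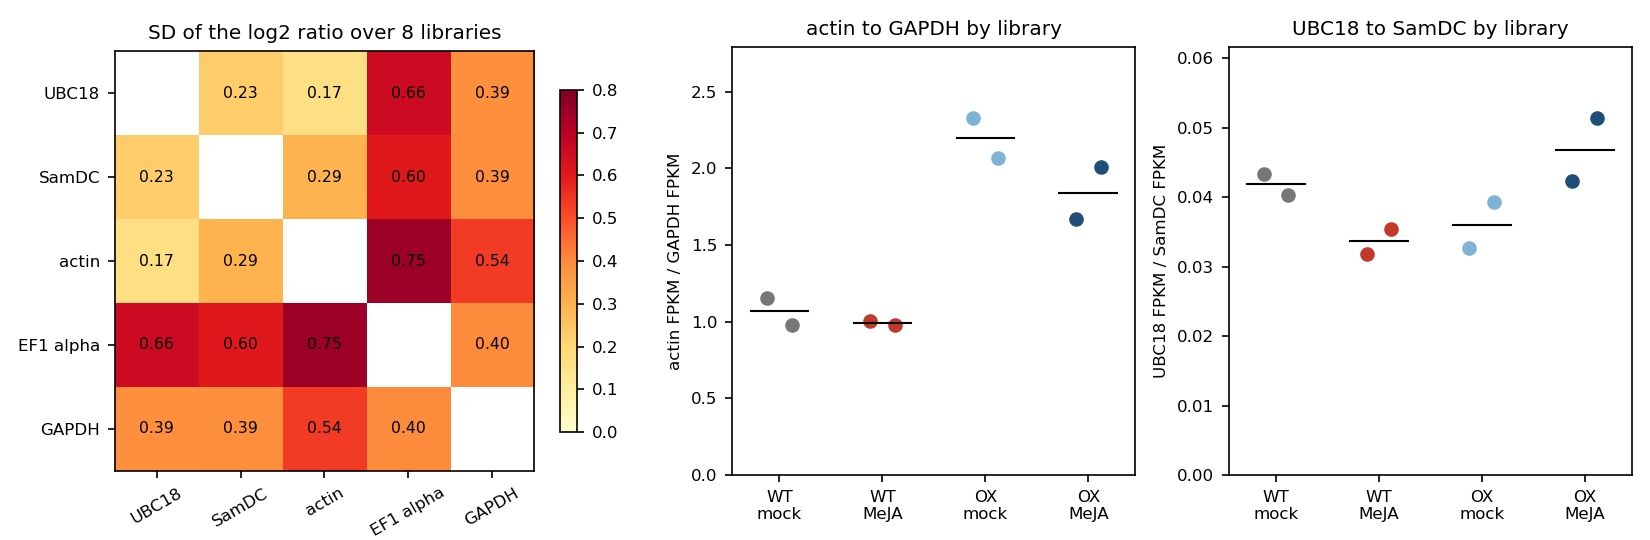
SD over 8 libraries of the log2 ratio for each pair of reference genes (left), and the ratio by library with group means as lines for *actin* to *GAPDH* (middle) and *UBC18* to *SamDC* (right), with groups as labelled and axes starting at 0. The *actin* to *GAPDH* ratio is 0.978 to 1.15 in the libraries labelled wild type and 1.67 to 2.33 in those labelled BdLNJ-OX, whereas the *UBC18* to *SamDC* ratios overlap.

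Across the 8 libraries, *EF1 alpha* and *GAPDH* moved together (Pearson r 0.80 on log2 values, 0.79 scaled) and *actin* moved against *GAPDH* (-0.84, -0.90 scaled). These correlations describe 8 libraries that share the 2 genotype labels, and carry no test. The gene whose scaled pattern over the 8 libraries was most like that of each reference gene was looked for among 6601 other genes with a mean of at least 10 FPKM. For *EF1 alpha* it was *BRADI3G39870* (r 0.998), for *actin* *BRADI3G07190* (r 0.993) and for *GAPDH* *BRADI3G08290* (r 0.984). For *SamDC* it was *BRADI1G01840* (r 0.982) and for *UBC18* *BRADI2G02810* (r 0.918). The second-best matches, not named here, had r from 0.917 (*UBC18*) to 0.997 (*EF1 alpha*).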

How the data were processed

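RNA of 8 leaf samples was sequenced by the authors on an Illumina HiSeq2000 with TruSeq libraries. Per the labels and methods, reads were mapped with TopHat2 and quantified with Cufflinks in Galaxy. The assembly is not given in the sources used here. The deposited values are FPKM per gene with a precision interval. FPKM holds no counts, so no count test was run. Each table has 27833 entries, of which 1 without identifier was left out and repeated identifiers were summed, leaving 27830, with 19514 to 19959 above 0. Fragments per library were inferred from the interval widths over all genes. The intervals do not cover the spread between samples.

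Changes were tested with limma 3.58.1 (R 4.3.3) on log2(FPKM + 1), a scale that understates changes of low genes, over 14922 genes with a mean of at least 1 FPKM, as 4 group means (2 main effects for comparisons over both factors) with a mean trend and Benjamini-Hochberg adjustment. Where a fit leaves 1 library in a group, that library is assumed to vary like the others. Tested on simulated data for genotype over both treatments, with 200 of 14922 genes changed, the adjusted p alone recovered 74%, 87% and 92% of log2 changes of 1, 1.5 and 2. Named genes were the 5 reference genes, *LNJ*, the better of the 2 closest matches of each and the 3 steadiest genes. The members and lists were chosen with earlier results of these data known. The 15 pathway and leaf marker lists were not used, because the gene reference at hand gives no product names to match them to. Alternatives changed the scaling, pseudocount, filter, thresholds, genotype source and libraries.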

Additional observations from a re-analysis of the deposited data

How the results depend on the processing

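No paired analysis was possible because the labels number the samples 1 to 8 with no number shared between groups. None of the 5 reference genes was called in any of the 7 comparisons under the filters, pseudocount, status and threshold alternatives that kept the 2-fold rule. For genotype over both treatments, leaving out mock replicate 6 labelled BdLNJ-OX gave 1 call (*EF1 alpha*, -1.22), and 0 members were called without any other library. The adjusted p alone, an alternative chosen after seeing the data, as was leaving out each library after scaling, gave 1 member (*GAPDH*) as deposited and scaled. Median-ratio scaling, with or without the fold threshold, turned 8 small changes. For MeJA under the BdLNJ-OX label *UBC18* became -0.025 and *actin* -0.18. For MeJA over both genotypes *UBC18*, *SamDC* and *actin* became -0.058, -0.091 and -0.13. For genotype *SamDC* in mock became 0.22 and *UBC18* over both treatments 0.031, and the difference of MeJA changes for *actin* became -0.093. The cause was not tested.

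The genotypes of the table names turned every genotype difference by construction. In the order *UBC18*, *SamDC*, *actin*, *EF1 alpha* and *GAPDH*, they were then 0.22, 0.0060, -0.14, 0.87 and 0.91 in mock, -0.038, 0.43, -0.24, 1.13 and 0.64 in MeJA, 0.093, 0.22, -0.19, 0.998 and 0.78 over both treatments, and -0.26, 0.43, -0.11, 0.26 and -0.26 for the difference of MeJA changes. The MeJA changes of the 2 genotypes changed places, which turned *UBC18*, *SamDC* and *actin*, to 0.20, -0.17 and 0.054 in wild type and -0.059, 0.26 and -0.052 in BdLNJ-OX. Leaving out single libraries turned changes of up to 0.26 in size, and one of -0.39 (*EF1 alpha* for MeJA labelled BdLNJ-OX). The ranges for MeJA labelled wild type were -0.14 to 0.027 (*UBC18*), -0.11 to 0.0034 (*actin*), -0.33 to 0.075 (*EF1 alpha*) and -0.0090 to 0.11 (*GAPDH*), and for MeJA labelled BdLNJ-OX -0.010 to 0.12 (*actin*) and -0.89 to 0.11 (*EF1 alpha*). For MeJA over both genotypes they were -0.067 to 0.14 (*SamDC*) and -0.035 to 0.034 (*actin*). For genotype they were -0.16 to 0.14 (*SamDC* in mock) and -0.048 to 0.12 (*UBC18* in MeJA), and for the difference of MeJA changes -0.76 to 0.23 (*EF1 alpha*).

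The number of genes called over the whole table depended more on the setting. For genotype over both treatments 165 genes were called, 52 after scaling, 7 to 825 under the other settings and 11 to 705 without a library. For genotype in mock 12 were called, and 6 to 703 without a library. The simulation covered only genotype over both treatments with the adjusted p alone. It recovered 74% of log2 changes of 1 among genes at or above the median level, with noise independent between genes. Changes of that size or smaller may therefore be missed. Recovery in comparisons with 2 libraries a side, or with the 2-fold rule, was not simulated.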

Other observations

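Some well-expressed genes varied less over these 8 libraries, once scaled, than any of the 5 reference genes. Among the 1896 genes with a mean of at least 50 FPKM, the smallest SD of scaled log2(FPKM + 1) belonged to *BRADI2G10230*, at 0.04, with 127 to 137 scaled FPKM and a CV of 2.79%. It was followed by *BRADI4G34610*, at 0.04 with 50.6 to 54.9 scaled FPKM, and by *BRADI1G60852*, at 0.06 with 49.3 to 56.4 scaled FPKM. The deposited values of these 3 genes spread more, with an SD of 0.15, 0.13 and 0.11, beside 0.12 for *UBC18* and 0.11 for *actin*. They are the extremes of 1896 genes on the values that ranked them, and were not tried on other samples here. The tables used here give no product name for them.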
